A study of Mus musculus with 18 samples.

Results

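In mouse liver, 543 of 26180 annotated RefSeq genes had a promoter that was called open after refeeding in both wild-type (WT) livers but not after fasting in both. A promoter was called open in a liver when an ATAC-seq peak had its summit no more than 1000 bp from any transcript start of the gene. The members were therefore selected on the summits of the 4 WT ATAC-seq lists, and whatever those lists show about them is a description with no test. Of the 543 genes, 307 (56.5%) had a summit in fasted liver 1 only and 84 (15.5%) in fasted liver 2 only. The other 152 genes (28.0%) had a summit in neither fasted liver and are given apart. For comparison, 709 genes were called open in both livers of both states, and 432 in both fasted livers but not in both refed livers.

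ATAC-seq marks open chromatin by letting a transposase cut DNA that is not packed in nucleosomes, and a summit is the point of highest signal in a peak. Active promoters in liver carry such an opening just upstream of the transcript start, where transcription factors and RNA polymerase bind. When a fasted animal is refed, insulin rises and the liver turns from glucose output and fat burning to the synthesis of fatty acids, cholesterol and protein. H3K9me2 is the dimethylation of lysine 9 of histone H3, a mark known from silent chromatin, and JMJD1C is a Jumonji-family demethylase of that lysine.

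The livers came from C57BL/6J mice kept on chow for 6 to 8 weeks, and per the methods the mice were 12 weeks of age. For ATAC-seq there were 2 fasted livers of WT mice, 2 refed livers of WT mice and 2 refed livers of JMJD1C-LKO mice. H3K9me2 ChIP-seq covered 2 fasted and 2 refed livers of WT mice. RNA-seq covered 2 pooled RNA samples per genotype, all refed. JMJD1C-LKO mice carry floxed Jmjd1c alleles and Cre driven by the albumin promoter, which is active in hepatocytes, so the other liver cells keep the gene. Refed mice were fasted overnight and then given a diet high in carbohydrate, for 6 h per the labels and for 8 to 16 h per the methods. The treatment text was the same for every sample. The fasted and refed livers were therefore told apart by F and R in the sample titles and, for ATAC-seq, by the peak names. There was no JMJD1C-LKO fasted group, no H3K9me2 measurement in JMJD1C-LKO liver and no RNA-seq of fasted liver. In bulk liver, fewer cells of a type and less RNA or open chromatin per cell cannot be told apart.

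The peak lists differed in size, and 3 of them stood apart. The ATAC-seq lists held 5220 and 7632 summits after fasting, 5027 and 3119 after refeeding, and 1450 and 825 in JMJD1C-LKO. In fasted liver 2, 78.0% of the summits lay in repeat sequence, against 19.0% in fasted liver 1 and 41.4% and 43.0% in the refed livers, and only 1436 genes had a promoter summit there against 3147 in fasted liver 1. In JMJD1C-LKO livers 1 and 2, 18.55% and 48.36% of the summits lay in repeat sequence. With fasted liver 1 alone as the fasted state, 236 members remained, all without a summit in it. With fasted liver 2 alone there were 459. With refed liver 1 left out 864 genes met the rule, and with refed liver 2 left out 1654 did. Few genes had a promoter summit in JMJD1C-LKO liver 2 (232, against 1062 in JMJD1C-LKO liver 1) and in H3K9me2 refed liver 1 (61, against 9194 in refed liver 2).

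The strongest members and the cholesterol genes among them are shown by the DNA just upstream of their start. The 150 bases before the transcript start are given 5′ to 3′ on the strand of the gene, from RefSeq on GRCm38, with capitals on each match to a motif searched on both strands. The motifs with matches here were the GC box (GGGCGG), the CCAAT box (CCAAT), an ETS site (CCGGAAG), the short ER stress motif (CCACG) and an SREBP element (TCACNCCAC). Nt5dc3, Add3 and Bcl10 are among the 5 members with the highest ranked summits. Hmgcs1 and Cyp51 are among the 3 cholesterol synthesis members with the highest expression. Hspa5 was added after its values were seen, as a member with no fasted summit and a large RNA difference.
Nt5dc3, chr10:86778855-86779004, plus strand: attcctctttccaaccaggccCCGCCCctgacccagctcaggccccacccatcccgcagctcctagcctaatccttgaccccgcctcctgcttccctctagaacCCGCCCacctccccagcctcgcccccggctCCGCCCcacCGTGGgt
Add3, chr19:53142606-53142755, plus strand: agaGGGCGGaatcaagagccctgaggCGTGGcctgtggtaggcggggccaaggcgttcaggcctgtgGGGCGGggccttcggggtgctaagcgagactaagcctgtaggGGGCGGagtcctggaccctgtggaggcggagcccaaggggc
Bcl10, chr3:145924112-145924261, plus strand: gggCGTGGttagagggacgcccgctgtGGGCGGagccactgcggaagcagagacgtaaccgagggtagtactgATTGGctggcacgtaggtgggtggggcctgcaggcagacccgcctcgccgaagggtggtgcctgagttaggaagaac
Hmgcs1, chr13:119690201-119690350, plus strand: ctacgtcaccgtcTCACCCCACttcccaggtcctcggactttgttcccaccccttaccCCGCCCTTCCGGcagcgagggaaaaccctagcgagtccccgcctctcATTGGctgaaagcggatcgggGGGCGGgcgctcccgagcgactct
Cyp51, chr5:4104698-4104847, minus strand: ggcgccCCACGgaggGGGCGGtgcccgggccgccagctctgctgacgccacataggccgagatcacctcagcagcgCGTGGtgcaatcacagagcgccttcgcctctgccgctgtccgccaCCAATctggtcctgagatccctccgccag
Hspa5, chr2:34771940-34772089, plus strand: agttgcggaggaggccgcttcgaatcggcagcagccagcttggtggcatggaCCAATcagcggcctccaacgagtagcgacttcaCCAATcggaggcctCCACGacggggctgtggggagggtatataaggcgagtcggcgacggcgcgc

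In Hmgcs1, which encodes the synthase that makes HMG-CoA for cholesterol synthesis, the SREBP element spanned positions −137 to −129 from the start. The summits of the 2 refed livers lay at −112 and −106 bp of that start. SREBP factors are known to switch on cholesterol and fatty acid genes. In Hspa5, which encodes the ER chaperone BiP, the CCAAT boxes lay at −98 to −94 and at −65 to −61 and the short ER stress motif at −51 to −47. Its refed summits lay at −184 and −329 bp, outside the printed bases. Also outside them were the refed summits of Nt5dc3 (−309 and −234 bp) and Cyp51 (53 bp past the start in both livers). The summit of Add3 in refed liver 1 (−210 bp) was outside as well. A match describes the letters only, and binding of a factor was not measured.

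The 450 members with a promoter in the RefSeq table (82.9%) had GC-rich promoters. Over 300 bases, 250 before and 50 after the start, their median GC content was 64.7%, against 61.3% for 607 promoters open in both states and 52.7% for all 32851 promoters in the table. The median ratio of observed to expected CpG was 0.84, 0.818 and 0.384, and 84% of members, 82.2% of promoters open in both states and 33.3% of all promoters had over 50% GC and a ratio over 0.6. A GC box was found in 81.3% of members, 71% of promoters open in both states and 35.7% of all. A CCAAT box was found in 58.7%, 54.2% and 37.4%, and an NRF1 motif (GCGCNTGCG) in 17.3%, 12.9% and 6.31%. The TATA box (TATAAA) was found in 5.33% of members and 13.6% of all promoters. The E-box CACGTG, which the upstream stimulatory factor USF-1 can bind, was found in 8.67% of members, 8.24% of promoters open in both states and 7.15% of all. The SREBP element was found in 5 of 450 members (1.11%), 1 of 607 promoters open in both states (0.165%) and 1.24% of all promoters. The ETS site was found in 17.1%, 16.6% and 8.86%, and the short ER stress motif in 58%, 52.1% and 32.8%. The cAMP response element (TGACGTCA) was found in 2.44%, 3.46% and 1.79%, and the YY1 motif (AAGATGGCG) in 3.78%, 3.79% and 1.4%. For all of these motifs except the SREBP element and the cAMP response element, the share of members was closer to that of promoters open in both states than to that of all promoters. For members and promoters open in both states, a single promoter per gene was taken, the one nearest the summit of refed liver 1. All promoters were every entry of the table, with no choice by summit, so these sets were not formed alike.

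At the members, the refed summits sat just upstream of the start and at nearly the same place in both livers. Their median position was −116 bp in refed liver 1 and −117 bp in refed liver 2, and 88.6% and 88.0% lay within 300 bp of a start. Where a gene had several summits in the window, the strongest was taken. The summits of the 2 livers were 52 bp apart in the median, and 492 of 543 pairs (90.6%) were within 200 bp. Summit strength is the deposited −log10 q at the summit, and it was ranked within each list, where a percentile of 100 is the strongest. The median member stood at the percentile 74.0 in refed liver 1 and 59.6 in refed liver 2, below the 84.2 and 78.3 of promoters open in both states. Members with no fasted summit stood at 68.4 and 59.6. Members were thus called from weaker summits than promoters open in both states, as far as ranks in the lists that defined them go.

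**Figure D1:**
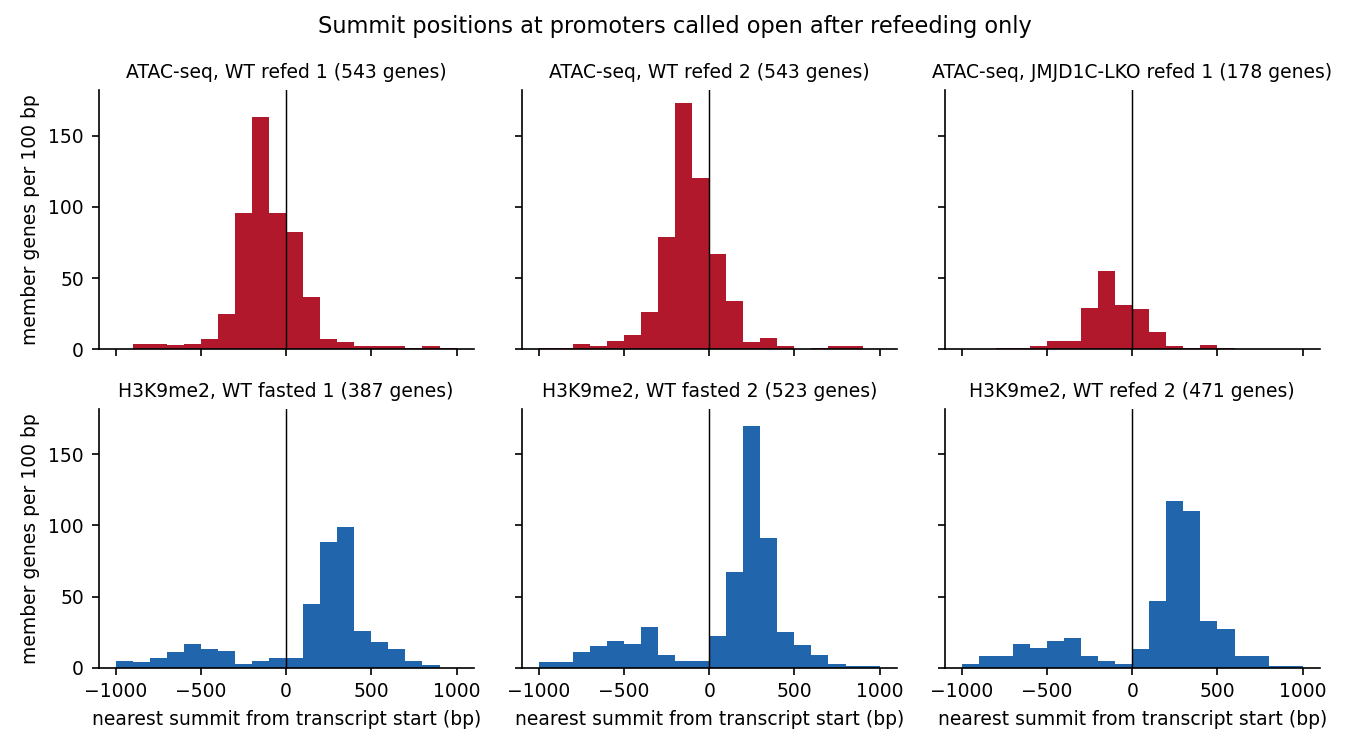
Histograms of the signed distance in bp from the transcript start to the strongest summit within 1000 bp, in 100 bp bins, for the members with such a summit in each list (1 panel per liver). The axis label calls it the nearest summit. The refed and JMJD1C-LKO ATAC-seq summits (red) peaked upstream of the start, with a median of −116 bp in refed liver 1, and the H3K9me2 summits (blue) downstream of it, with a median of 234 bp in fasted liver 2.

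The highest ranked members were Nup85, Nt5dc3, Add3, Kat6b and Bcl10. Nup85, a subunit of the nuclear pore, had a summit of −log10 q 19.2 at −128 bp in refed liver 1 and of 20.3 at −82 bp in refed liver 2, and one of 7.72 in fasted liver 1. Add3, the gamma subunit of the membrane skeleton protein adducin, had summits of 13.6 and 16.2 in the refed livers and one of 4.05 in fasted liver 1. Kat6b, a histone acetyltransferase, had its summits 941 and 851 bp past the start. Kat6b was also near the limit of the window. The members whose deciding summit lay nearest inside 1000 bp were Rdh10 at 999 bp, Kat6b at 941 bp and Idh1 at 889 bp. The genes just outside were Prr12 at 1015 bp, Iscu at 1060 bp and Gmfg at 1074 bp.

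For the 152 members with no fasted promoter summit, the nearest summit of either fasted list lay 1013 to 748334 bp from a start, with a median of 64180.5 bp. It was within 2000 bp for 6 genes, within 10000 bp for 13 and beyond 100000 bp for 59. Among these genes were Hspa5, the cholesterol genes Msmo1 and Mvd, the sterol regulator Srebf2 and the mTOR activator Rheb. No summit in a list means that no peak passed the cutoffs of the authors, and the signal below them was not analysed here.

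Of the lists fixed for the description, those of cholesterol synthesis and ER folding held the largest shares of members. Members were 5 of 22 genes of cholesterol synthesis (22.7%) and 6 of 27 genes of the unfolded protein response and ER folding (22.2%), where 2.07% of all annotated genes were members. Of the cholesterol genes 3 more were open in both states and none in the fasted state only. Members were 2 of 17 immediate early genes, 2 of 15 genes of sterol sensing and uptake, 8 of 94 ubiquitin enzymes and 5 of 72 translation factors. No member was found among 22 lipogenic genes, 14 gluconeogenic genes or 37 tRNA synthetases. Among the lipogenic genes 1 was open in both states and 1 in the fasted state only, and among the gluconeogenic genes 1 was open in the fasted state only. The remaining lists held few members, with 1 of 85 cytosolic and 3 of 78 mitochondrial ribosomal proteins, 1 of 40 proteasome subunits, 1 of 98 respiratory chain genes, 1 of 29 insulin and mTOR genes and 1 of 19 clock genes. They further held 2 of 69 chromatin genes, 4 of 100 Rab and Sec trafficking genes, 2 of 47 mitochondrial carriers and 16 of 403 Zfp genes. The lists and the members were chosen with earlier results known, so these shares are no test of a theme.

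In JMJD1C-LKO refed liver, fewer members than promoters open in both states had a summit. In JMJD1C-LKO liver 1, 178 members (32.8%) had a promoter summit, against 414 of 709 promoters open in both states (58.4%), 25.5% of promoters open in the fasted state only and 4.06% of all genes. In JMJD1C-LKO liver 2 it was 31 members (5.71%), against 12.98% of promoters open in both states, 6.02% of promoters open in the fasted state only and 0.886% of all genes. Both JMJD1C-LKO livers had a summit at 15 members (2.76%), against 8.60% of promoters open in both states, 3.01% of promoters open in the fasted state only and 0.397% of all genes. Of the 152 members with no fasted summit, 37 (24.3%) had one in JMJD1C-LKO liver 1, 6 (3.95%) in liver 2 and 2 in both. With the list of fasted liver 2 left out, 26.7% of the 236 genes that remained had one in JMJD1C-LKO liver 1 and 5.09% in liver 2. The share in both livers rested on the short list of liver 2, and with a summit in either liver enough it was 35.7%. No test was made, since genes are not replicates and 2 livers per group give no permutation p below the threshold.

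**Figure D2:**
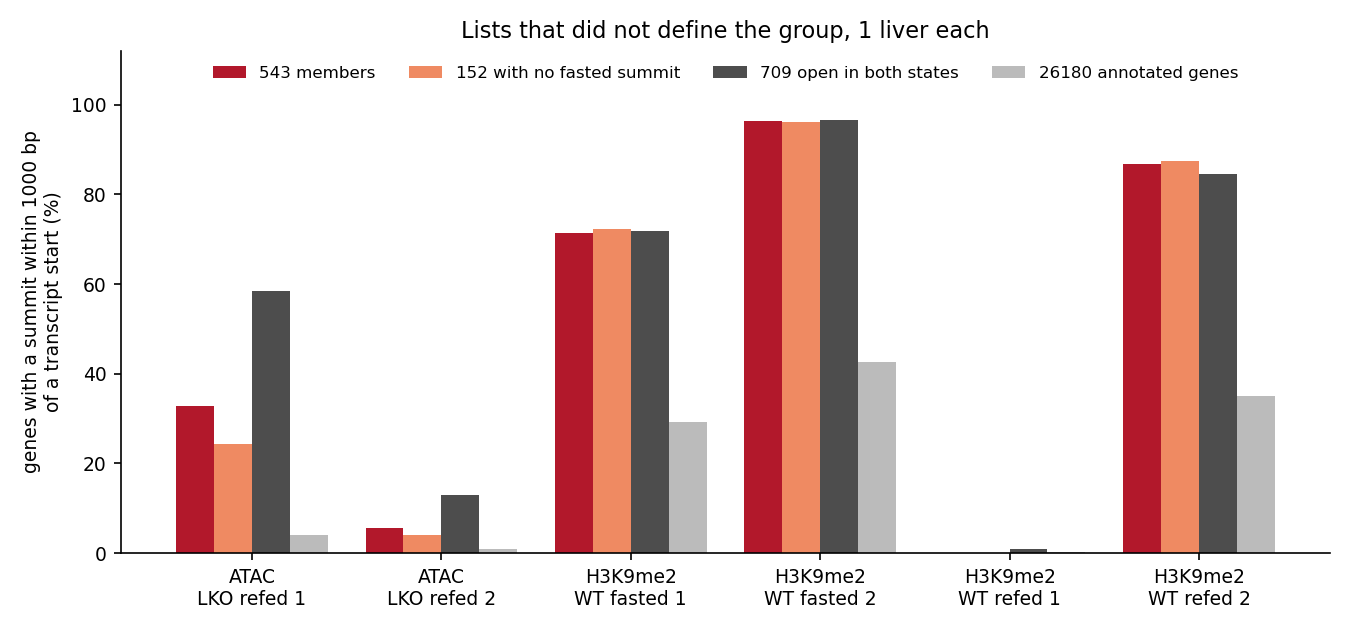
Bars give the percent of genes with a summit within 1000 bp of a transcript start in 6 lists that the choice of members did not use, each from 1 liver, for 543 members, the 152 of them with no fasted summit, 709 promoters open in both states and 26180 annotated genes. Members were at 32.8% in JMJD1C-LKO liver 1 and promoters open in both states at 58.4%, whereas the H3K9me2 bars of both sets were close in every liver.

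The members had weaker refed summits, so the shares were also set side by side within 4 strength groups, set by the quartiles of the lower percentile of the 2 refed livers over members and promoters open in both states together. In the weakest group, 62 of 249 members (24.9%) and 63 of 145 promoters open in both states (43.5%) had a summit in JMJD1C-LKO liver 1. In the following groups members were at 32.3%, 44.7% and 47.4%, and promoters open in both states at 50.5%, 60.1% and 68.0%. The share of members was lower in each group, and the strongest group held only 38 members. By the rule, promoters open in both states had a summit in all 4 WT lists, and members lacked one in a fasted list. The strength groups came from the refed lists that chose the members, so this is a description with no test. Promoters open in the fasted state only were not placed in these groups. In JMJD1C-LKO liver 2 the members were at 5.62%, 7.52%, 1.63% and 13.2% and the promoters open in both states at 20%, 4.04%, 11.4% and 13.6%, with the members higher in the second of these groups.

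**Figure D3:**
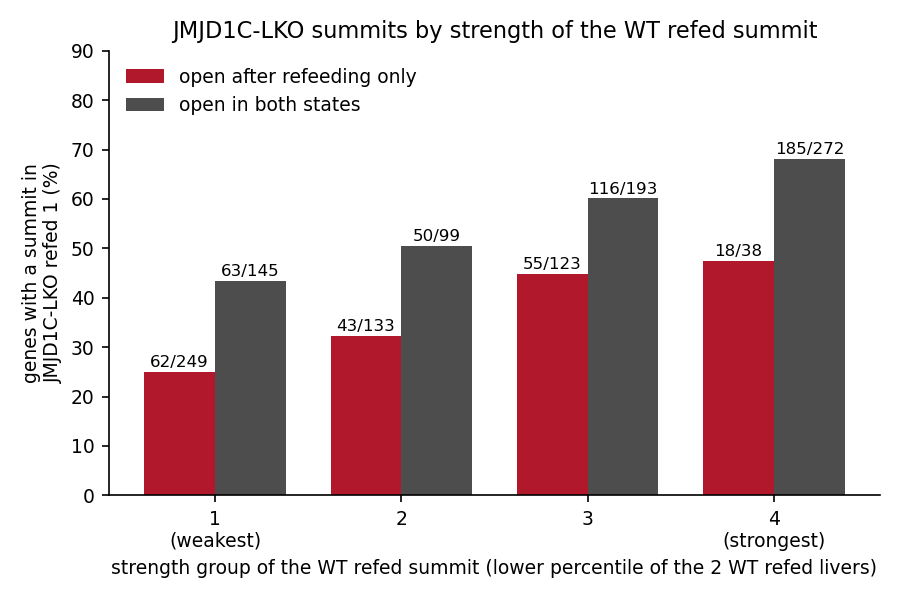
Bars give the percent of genes with a summit in JMJD1C-LKO liver 1 in each of 4 groups of refed summit strength, weakest to strongest, with the number of genes above each bar as those with a summit over all. Members rose from 24.9% to 47.4% and promoters open in both states from 43.5% to 68.0%. Groups differ in size since many summits tie in strength.

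Where a member had a summit in JMJD1C-LKO liver 1, it was mostly at the WT place. It lay within 200 bp of the summit of refed liver 1 in 157 of 178 genes (88.2%), with a median gap of 70.5 bp. Promoters open in both states were alike, at 364 of 414 (87.9%) and 58 bp. In JMJD1C-LKO liver 2 it was 23 of 31 members (74.2%), with a median gap of 110 bp, and 73 of 92 promoters open in both states (79.35%). The members with a summit in both JMJD1C-LKO livers included Add3, Nmt2, Prelid3b, Blvrb, Bsdc1, Tmem167b, Pip4k2b and Oasl1. Nmt2 attaches myristate to proteins, Blvrb reduces biliverdin, and Oasl1 is an interferon-induced gene. Oasl1 and the noncoding gene Gm13822 shared 1 summit, as did Pip4k2b and the microRNA gene Mir8102. The 2 such genes with no fasted summit were Ube2d3, a ubiquitin-conjugating enzyme, and 4930539J05Rik, which was named after its values were seen. Among the 5 cholesterol members only Cyp51 had a JMJD1C-LKO summit, 61 bp past the start in liver 1, next to the WT refed summits 53 bp past it. Of the 6 ER folding members only Dnajb9, an ER co-chaperone, had one, at −47 bp in liver 1. Rheb had one in liver 2 only, at −265 bp.

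H3K9me2 summits lay at most member promoters after fasting and also after refeeding. In the fasted livers 387 (71.3%) and 523 members (96.3%) had an H3K9me2 promoter summit, against 29.3% and 42.7% of all genes. In the refed livers it was 0 and 471 members (86.7%), against 0.233% and 35.1% of all genes. Both fasted livers had one at 387 members (71.3%), where 29.1% of all genes did, and both refed livers at no member. With only the 1297 strongest H3K9me2 summits of each liver, 9.39% of members had one in both fasted livers. The share of all genes at that setting was not computed. The count of 0 came with a list of 1297 summits in refed liver 1, of which 61 genes in all had one at a promoter. Genes tested in the RNA-seq were at 51.5%, 74.1%, 0.135% and 61.5% in the 4 livers, and promoters open in both states at 71.8%, 96.6%, 0.987% and 84.5%. The shares at members and at promoters open in both states were within 3 percentage points of each other in each of the 4 livers.

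Feeding state and replicate could not be told apart for this mark at the members. Every member with a summit in refed liver 2 also had one in fasted liver 2, and 52 members had one in fasted liver 2 but not in refed liver 2. All 387 members with a summit in fasted liver 1 had one in fasted liver 2, and 379 of them (69.8% of members) also had one in refed liver 2. Over all genes, 7621 of the 7668 with a summit in fasted liver 1 also had one in fasted liver 2, so this nesting was not particular to the members. The other overlaps were not counted over all genes. Fasted liver 1 thus held fewer members than refed liver 2, and fasted liver 2 more. In 20 members (3.68%) no H3K9me2 summit was listed in any of these 3 livers. The 13 of them tested in the RNA-seq had a median WT level of 1.32 CPM, against 26.4 CPM for the members with a summit in all 3. CPM are TMM-normalised counts scaled to a common library size.

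The H3K9me2 summits and the ATAC-seq summits lay on opposite sides of the start. The median H3K9me2 summit of members was 274 and 234 bp downstream in the fasted livers and 263 bp downstream in refed liver 2, and 77.4% to 78.3% of them lay downstream. They were 408 to 468 bp in the median from the summit of refed liver 1, and only 6.20% to 9.94% lay within 200 bp of it. Hmgcs1 had H3K9me2 summits at 335, 356 and 363 bp in fasted livers 1 and 2 and refed liver 2, and its refed ATAC-seq summits at −112 and −106 bp. Pdk4 had one in fasted liver 2 only, at 131 bp.

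The RNA-seq compared refed JMJD1C-LKO with refed WT liver, and it was not used to choose the members. The targeted gene was examined first. Jmjd1c stood at 20.0 and 20.5 CPM in the libraries labelled JMJD1C-LKO and at 21.99 and 22.78 CPM in the WT libraries, a log2 fold change of −0.14 ± 0.084 (SE, edgeR quasi-likelihood test, adjusted p = 0.233). The total over transcripts therefore did not bear out the labels, and the deleted exons are not given in the sources used here. All directions below are those of libraries labelled JMJD1C-LKO over WT.

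Markers of other liver cells moved with this comparison. All 6 Kupffer cell and macrophage markers were higher in the libraries labelled JMJD1C-LKO, with a summed level of 340.4 to 484.8 CPM against 181.8 to 185 CPM in WT. Of 5 endothelial markers 4 were higher, at 112.7 to 147.8 CPM against 82.83 to 84.95 CPM. The 8 hepatocyte markers summed to 106500 to 118400 CPM against 116300 to 118300 CPM, with 1 of them higher. Of the other markers 1 of 5 stellate, 0 of 4 cholangiocyte, 1 of 6 lymphocyte, 1 of 3 erythroid and 1 of 1 tested pancreatic markers were higher, and none of any list was lower. None of these markers was a member. Their part in the differences at the members was not tested.

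Of the 543 members 500 were tested, 37 were absent from the count table and 6 did not pass the filter on low counts, and fewer of them than of all genes were higher in JMJD1C-LKO. At an adjusted p below 0.05 in edgeR, 53 members (10.6%) were higher, against 14.6% of the 14152 genes tested, and 66 (13.2%) were lower, against 13.4%. Promoters open in both states had 59 higher (9.16%) and 111 lower (17.2%) of 644. The median log2 fold change was −0.053 over members and 0.006 over all genes. The 142 tested members with no fasted summit had 15 higher (10.6%) and 16 lower (11.3%). With the list of fasted liver 2 left out, the 222 tested genes that remained were at 10.8% higher and 12.6% lower. The 174 tested members with a summit in a JMJD1C-LKO liver had 14 higher (8.05%) and 25 lower (14.4%), and the 326 without had 39 higher (11.96%) and 41 lower (12.6%). The share lower at members was thus near that of all genes, also where the promoter had no JMJD1C-LKO summit. Both shares moved most in fits without a WT library, where the spread came from the JMJD1C-LKO libraries alone. Those differed more from each other (chi-square per degree of freedom 32.6, against 12.7 in WT). The part of this in the shift of the shares was not tested. Without WT library 1 they were 1.60% higher and 3.19% lower, where all genes were at 5.44% and 3.30%. Without WT library 2 they were 1.80% and 3.60%, where all genes were at 4.51% and 2.78%. Without JMJD1C-LKO library 1 they were 13.2% and 22.2%, where all genes were at 17.86% and 17.87%. Without JMJD1C-LKO library 2 they were 7.78% and 9.98%, where all genes were at 11.2% and 10.3%. The share higher was below that of all genes in each of these 4 fits, and the share lower was above it without JMJD1C-LKO library 1 and without WT library 2 and below it in the other fits.

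**Figure D4:**
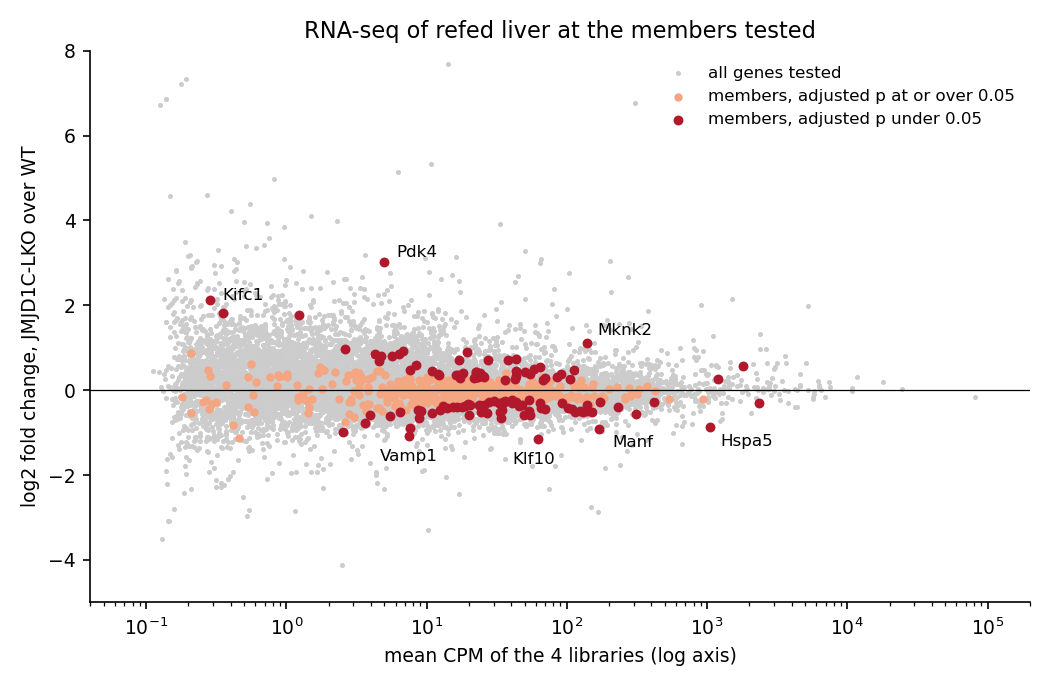
Each point is a gene, placed by its mean CPM over the 4 libraries (log axis) and its log2 fold change of JMJD1C-LKO over WT, with all genes tested in grey, members that passed an adjusted p of 0.05 in dark red and other members in orange. The members that passed split into 53 higher and 66 lower, most of them within 1 log2 unit of 0.

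Members were expressed at a higher level than the typical gene tested. Their median WT level per transcript length was 10.6 TPM, against 10.3 TPM for promoters open in both states and 6.42 TPM for all genes tested. Of the 500 members tested 5 were higher and 2 lower by at least 2-fold, where 713 and 133 of 14118 annotated genes tested were. The lower ones were Klf10 and Vamp1, and the higher ones Mknk2, Pdk4, Ube2c, Kifc1 and Hmmr, of which Vamp1, Ube2c, Kifc1 and Hmmr are named after their values were seen. Kifc1 and Hmmr entered the test only through the JMJD1C-LKO libraries, where they were higher.

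The ER folding members were mostly lower, as was their whole list. Of the 6 members of that list 4 were lower and none higher, and of all 27 genes of the list 17 were lower and 1 higher. Over all genes tested 13.4% were lower and 14.6% higher. The direction was thus that of the list and not particular to the members. Hspa5, the chaperone BiP, stood at 820 and 673 CPM in JMJD1C-LKO and at 1308 and 1413 CPM in WT. Its log2 fold change was −0.87 ± 0.107 (SE, edgeR adjusted p = 0.000595). Its promoter had no summit in either fasted liver or in either JMJD1C-LKO liver. Manf, a secreted ER stress protein, stood at 128 and 110.0 CPM against 208 and 238 CPM, and its log2 fold change was −0.90 ± 0.101 (SE, edgeR adjusted p = 0.000359). Derl2, a factor of ER-associated degradation, was lower by a log2 fold change of −0.52 (edgeR adjusted p = 0.00175). Sel1l, a partner in the same pathway, had one of −0.29 (edgeR adjusted p = 0.0253), which did not pass without WT library 1 (0.0978) or 2 (0.248). Dnajb9 and the stress factor Ddit3 did not pass, at log2 fold changes of 0.08 and −0.09 (edgeR adjusted p = 0.616 and 0.640).

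The cholesterol members did not move one way. Fdft1, squalene synthase, stood at 94.8 and 79.8 CPM in JMJD1C-LKO and at 115 and 121 CPM in WT, a log2 fold change of −0.43 ± 0.096 (SE, edgeR adjusted p = 0.00986). Mvd, mevalonate diphosphate decarboxylase, stood at 3.18 and 3.10 CPM against 4.61 and 4.81 CPM, with −0.59 ± 0.169 (SE, edgeR adjusted p = 0.0290). Msmo1, a sterol demethylation enzyme, was higher at 28.5 and 22.7 CPM against 19.8 and 18.3 CPM, with 0.43 ± 0.114 (SE, edgeR adjusted p = 0.0213). In each of these 3 genes the libraries of the 2 genotypes did not overlap, but nor did they in Hmgcs1 and Cyp51, which did not pass. The share of all genes without such overlap was not computed. None of the 3 calls was kept without WT library 1 (adjusted p = 0.0648, 0.156 and 0.0956) or without WT library 2 (0.115, 0.200 and 0.192). Msmo1 also did not pass without JMJD1C-LKO library 1 (0.0702), nor Mvd in DESeq2 (0.0539). Hmgcs1 stood at 56.6 and 52.7 CPM against 61.8 and 62.8 CPM, and Cyp51, the lanosterol demethylase, at 25.8 and 22.3 CPM against 29.0 and 28.6 CPM. Neither passed (edgeR adjusted p = 0.104 and 0.0637). Over the 22 genes of the list 7 were higher and 5 lower.

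Of the 2 sterol-handling members, Npc2, which carries cholesterol out of lysosomes, was higher by a log2 fold change of 0.50 (edgeR adjusted p = 0.0100), but not without WT library 1 (0.126) or 2 (0.0538). Srebf2, which encodes the SREBP-2 factor, stood at 23.9 and 20.0 CPM against 18.7 and 20.9 CPM and did not pass (edgeR adjusted p = 0.350).

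**Figure D5:**
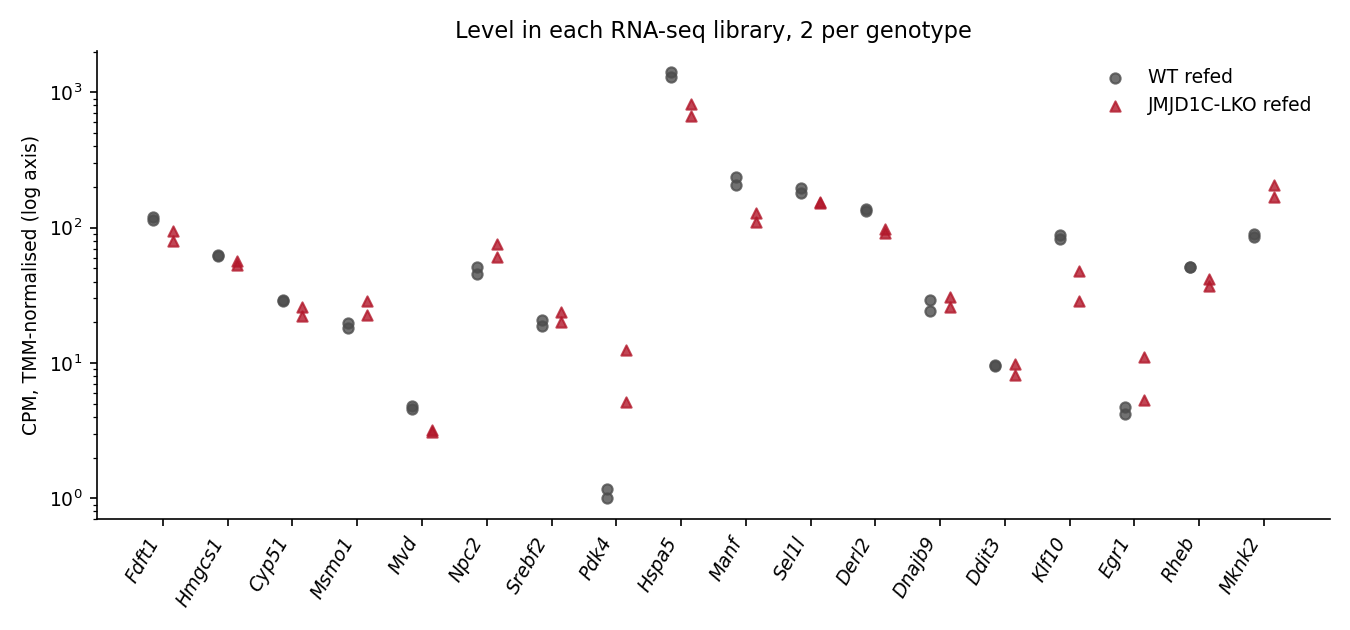
Points give the level of named members in each RNA-seq library in TMM-normalised CPM on a log axis, with WT refed as grey circles and JMJD1C-LKO refed as red triangles, 2 libraries each. Hspa5, Manf, Derl2 and Klf10 sat lower in both JMJD1C-LKO libraries than in both WT libraries, Mknk2 and Pdk4 sat higher in both, and Srebf2 and Dnajb9 overlapped.

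Among the higher members was Pdk4. Pdk4, the kinase that shuts off pyruvate dehydrogenase and is known to fall after feeding, stood at 5.18 and 12.6 CPM in JMJD1C-LKO and at 1.003 and 1.17 CPM in WT. Its log2 fold change was 3.03 ± 0.385 (SE, edgeR adjusted p = 0.000688), and its promoter was called open in both WT refed livers and in no fasted liver. Mknk2, a kinase that phosphorylates the translation factor eIF4E, stood at 169 and 208 CPM against 90.5 and 85.3 CPM, with 1.10 ± 0.105 (SE, edgeR adjusted p = 0.000172). Abhd2, a serine hydrolase, Inca1, a cyclin-dependent kinase inhibitor, and Cyth1, an exchange factor for ARF GTPases, were higher by log2 fold changes of 0.91, 0.71 and 0.74. Ube2b, a ubiquitin-conjugating enzyme, was higher by 0.55. Abhd2 had a summit in fasted liver 1, and none of Pdk4, Mknk2, Inca1, Cyth1 and Ube2b had one in a fasted liver. Over the members tested, 10.56% of those with no fasted summit and 10.61% of those with 1 were higher.

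Ube2c, Kifc1 and Hmmr, known for roles in mitosis, were higher at low levels. Ube2c stood at 1.25 and 2.54 CPM against 0.559 and 0.556 CPM, Kifc1 at 0.405 and 0.526 CPM against 0.0579 and 0.153 CPM, and Hmmr at 0.445 and 0.653 CPM against 0.0965 and 0.211 CPM. Kifc1 and Hmmr passed the filter on low counts only through their JMJD1C-LKO libraries, so a lower call was not open to them. No call was kept without WT library 1, without WT library 2 or without JMJD1C-LKO library 2. In that order the log2 fold changes of Ube2c were 1.77, 1.76 and 1.17. Those of Kifc1 were 1.59, 2.96 and 1.91, and those of Hmmr 1.37, 2.48 and 1.52. In DESeq2, Kifc1 and Hmmr did not pass (adjusted p = 0.0677 and 0.0803).

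Among the lower members, Klf10, a zinc finger repressor, stood at 47.8 and 28.9 CPM against 82.2 and 88.3 CPM, with a log2 fold change of −1.15 ± 0.183 (SE, edgeR adjusted p = 0.00199). Its summits lay 697 and 813 bp past the start. Egr1, the other immediate early member, was higher at 5.30 and 11.01 CPM against 4.75 and 4.24 CPM (log2 fold change 0.87, edgeR adjusted p = 0.0468). Without JMJD1C-LKO library 2 Egr1 was at 0.24 with an adjusted p of 0.342, without WT library 1 or 2 the adjusted p was 0.155 or 0.241, and in DESeq2 0.239. Ncl, the nucleolar protein nucleolin, Top1, DNA topoisomerase I, and Larp4b, an mRNA-binding protein, were lower by log2 fold changes of −0.55, −0.52 and −0.52 (edgeR adjusted p = 0.00143, 0.00158 and 0.00165). Vamp1, a SNARE protein, stood at 5.40 and 4.28 CPM against 11.4 and 9.05 CPM, with −1.08 (edgeR adjusted p = 0.0019). Rheb stood at 41.8 and 37.4 CPM against 51.6 and 50.9 CPM, with −0.37 (edgeR adjusted p = 0.0106), and did not pass without WT library 1 (0.105) or 2 (0.0956).

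In the lists of the gene expression machinery, named members that passed were mostly lower. Over all genes tested 13.4% were lower and 14.6% higher. None of the 5 translation factors passed, with Eif5 at −0.19 and Eif2ak4, the kinase GCN2, at 0.14, while 3 of the 66 factors tested were higher and 19 lower. Rpl7 was the only cytosolic ribosomal protein among the members and was lower by −0.29, and 54 of the 82 tested were lower. Of the mitochondrial ribosomal members Mrps14 was lower by −0.30, and Mrpl17 and Mrpl34 did not pass at −0.14 and −0.09. The splicing factor gene Srsf6 was lower by −0.44, and U2af2 and Hnrnpa1 did not pass. Jarid2, a partner of the Polycomb complex, was lower by −0.39, and the H3K9 and H3K36 demethylase gene Kdm4b was at −0.03. Of the 15 Zfp members tested 3 were lower and 1 higher, calls that were each lost without WT library 1 or 2, and of the 8 ubiquitin members 2 were higher. The clock activator Arntl, the proteasome subunit Psmd3, the ATP synthase subunit Atp5c1, the coat subunit Copz1 and the phosphate carrier Slc25a3 did not pass, at 0.54, −0.15, −0.07, −0.12 and 0.11. The calls of Rpl7, Mrps14 and Jarid2 were lost without WT library 1 or 2 and without JMJD1C-LKO library 2, and that of Srsf6 without WT library 1.

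Of the named members with a summit in both JMJD1C-LKO livers, Nmt2, Prelid3b, Blvrb and Pip4k2b were lower in RNA by log2 fold changes of −0.36, −0.25, −0.34 and −0.40, and Oasl1 was higher by 0.58. Bsdc1 and Tmem167b did not pass, at 0.12 and 0.17. None of these 5 calls was kept without WT library 1 or without WT library 2.

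The highest ranked promoters showed no common direction in RNA. Nt5dc3 was higher by 0.35 (edgeR adjusted p = 0.0230), but not without WT library 1 (0.168), WT library 2 (0.161) or JMJD1C-LKO library 2 (0.0814). Nup85, Add3, Kat6b and Bcl10 did not pass, at −0.22, 0.32, −0.09 and 0.04. Hspa8, Hspa5, Tmbim6 and Acsl1 were among the most highly expressed members with H3K9me2 in both fasted livers. Tmbim6 was higher by a log2 fold change of 0.27 (edgeR adjusted p = 0.0357), a call lost without WT library 1 or 2 or JMJD1C-LKO library 2. Hspa8, a cytosolic chaperone, stood at 2102 and 2090 CPM against 2566 and 2576 CPM, with −0.29 (edgeR adjusted p = 0.0261), which did not pass without WT library 1 (0.162) or 2 (0.174). Acsl1, which activates long-chain fatty acids, stood at 920 and 807 CPM against 1009 and 984 CPM and did not pass (edgeR adjusted p = 0.118). Of the 363 tested members with H3K9me2 in both fasted livers, 35 (9.64%) were higher and 53 (14.6%) lower. The 137 others had 18 higher (13.1%) and 13 lower (9.49%), and over all genes tested the shares were 14.6% and 13.4%.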

How the data were processed

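ATAC-seq and ChIP-seq summits and RNA-seq counts of mouse liver were used as deposited. For each peak sample the authors called peaks with MACS2 (2.1.1 per the processing notes), with peaks kept below a q-value of 0.05, and deposited the summits with the −log10 of the q-value. These lists hold no read counts, so the depth of each peak sample is unknown. The RNA-seq table holds estimated counts for each RefSeq transcript as the authors deposited them, unscaled and summing to 51265155 to 54400531 per library, and the tool that made them is not given in the sources used here. A second deposited table holds p-values and fold changes of the authors' own comparison and was not used.

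Transcript starts were those of 26180 genes with NM_ or NR_ transcripts on GRCm38, the build of the lists. Of 24994 transcripts 24823 were matched by identifier and 114 by symbol. Counts were summed per gene, rounded, filtered with filterByExpr and tested with edgeR 4.0.16 (R 4.3.3), with TMM factors of 0.961 to 1.018, no block and Benjamini-Hochberg adjustment over 14152 genes. RNA was pooled over mice, so p-values measure the spread between these samples. DESeq2 1.42.0 was an alternative. The steps were tested on simulated data. Replicates differed beyond sampling noise (chi-square per degree of freedom 12.7 in WT and 32.6 in JMJD1C-LKO).

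The members and gene lists were chosen with earlier results of these data known. Genes named were the members of these lists (6 at most per list, by WT CPM), the 5 of smallest p among the higher and among the lower, the 5 highest ranked by refed summit, up to 10 with summits in both JMJD1C-LKO livers, up to 5 per state with H3K9me2 in both livers, and the 3 genes on each side of the window limit. Some genes that this rule names are not reported here.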

Additional observations from a re-analysis of the deposited data

How the results depend on the processing

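The number of members was 533 with a window of 500 bp, 568 with 2000 bp, 520 with summits of a score of at least 5, 501 with NM_ transcripts, 538 without summits in repeats and 612 with the 3119 strongest summits of each WT liver, of which 456 were members as reported. With equal numbers of summits 237 genes, not 152, had no fasted summit. Leaving out 1 WT liver gave 236 to 1654 members, 236 to 698 without a fasted summit, 3.08% to 5.45% with a summit in JMJD1C-LKO liver 2, 1.45% to 2.54% in both JMJD1C-LKO livers and 0% to 0.242% with H3K9me2 in both refed livers. With a score of at least 5 the share in JMJD1C-LKO liver 2 was 2.12%, in both JMJD1C-LKO livers 0.962% and with H3K9me2 in both refed livers 0.192%, which was 0.186% without repeats. With the 825 strongest summits of each of 6 livers, JMJD1C-LKO liver 2 was at 9.14%. A summit in either liver gave 35.7% for JMJD1C-LKO and 86.7% for refed H3K9me2. With the 1297 strongest H3K9me2 summits of each liver 9.39% had one in both fasted livers. The cause of these shifts was not tested. The share in JMJD1C-LKO liver 1 lay between 23.4% and 36.0% in all settings run.

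Leaving out 1 RNA-seq library gave 3.19% to 22.2% of members lower and 1.60% to 13.2% higher, and 2.78% to 17.87% of all genes lower and 4.51% to 17.86% higher. In these fits the lone library of a genotype is assumed to vary like the other genotype. RLE factors, DESeq2, no filter, members with no fasted summit, members from equal numbers of summits and, chosen after seeing the data, members without a summit in fasted liver 1 and 1 gene per group of members that share a summit gave 10.9% to 15.4% lower and 7.65% to 11.1% higher. Libraries of the same replicate number did not deviate together (correlation of deviations −0.00441) and share only a number. With the replicate number as a block the shares were 14.6% lower and 11.2% higher, and of 83 members followed singly 1 call was lost (Prelid3b) and 1 gained (Zfp36l1), with no other call changed. Of 45 calls among them 15 held in every setting, and none reversed. The calls lost were 30 without WT library 1, 28 without WT library 2, 11 and 2 without JMJD1C-LKO library 2 and 1, and 8 in DESeq2. With 2 libraries per genotype no single-value permutation test can reach the threshold.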

Other observations

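The members were unevenly spread over the chromosomes. Chromosome X held 1 member among 1126 genes (0.0888%), and chromosome 12 held 38 among 897 (4.24%), where 2.07% of all genes were members. Among genes tested in the RNA-seq, 1 of 425 on chromosome X (0.235%) and 34 of 485 on chromosome 12 (7.01%) were members. Promoters open in both states numbered 3 on chromosome X (0.266%) and 29 on chromosome 12 (3.23%), where 2.71% of all genes were. The member on chromosome X was Pin4, a peptidyl-prolyl isomerase, which had no fasted summit.

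Of the 543 members 195 (35.9%) shared a refed summit with another member, in groups of at most 3 genes, and the members made up 444 separate promoter groups. The sharing of a summit means that the openness of these genes was not measured separately.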
